A study of Mus musculus with 14 samples.

Results

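Small heat shock proteins and their co-chaperone Bag3 were followed in mouse triceps through 8 genes, Cryab, Hspb1, Hspb2, Hspb3, Hspb6, Hspb7, Hspb8 and Bag3. They were chosen by symbol, as the small heat shock proteins of muscle and the partner of Hspb8, and make up 8 of the 52550 genes in the count table. The tissue came from 14 male mice: 3 WT controls and 4 WT runners, and their littermates, 3 FLExDUX4 controls and 4 FLExDUX4 runners. Runners had a wheel for voluntary use over 6 weeks, and controls had none. FLExDUX4 mice carry a human DUX4 transgene in an inverted, Cre-dependent form and model facioscapulohumeral muscular dystrophy. The labels give the genotype with no Cre driver, no promoter and no age, and the level of DUX4 was not analysed here. Replicate numbers follow the order of the sample records and only name a mouse.

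Small heat shock proteins bind unfolding proteins without using ATP and hold them until other chaperones refold them or they are degraded. In muscle several of them sit on the Z-disc, desmin and filamin during contraction or stress. HSPB8 is held by BAG3, which links it to HSP70 and to the ubiquitin ligase CHIP, so that damaged filamin is taken to autophagy in a route called chaperone-assisted selective autophagy (CASA). HSPB2 and HSPB3 form a complex with each other in differentiated muscle, and mutations of CRYAB, HSPB8 and BAG3 cause myopathies. HSF1, the main heat shock transcription factor, binds heat shock elements, inverted repeats of the letters GAA.

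Because several members are known targets of HSF1, the upstream sequences are shown first. The RefSeq promoter table (build GRCm38.p6) held 6 of the 8 genes, in 7 windows of 250 bases before and 50 after a start site, with Hspb6 in 2 of them. It held no entry for Hspb2 and Cryab. Both strands were searched for GAANNTTC and TTCNNGAA, 2 inverted GAA units spaced as in a heat shock element. Each motif is its own reverse complement, and the 2 do not match the same 8 bases. Hspb1, the only member with 2 matches, and Hspb7, the only 1 of the 6 with none, are given with all 250 upstream bases, and capitals mark a match.
Hspb1 upstream, chr5:135887669-135887918, plus strand: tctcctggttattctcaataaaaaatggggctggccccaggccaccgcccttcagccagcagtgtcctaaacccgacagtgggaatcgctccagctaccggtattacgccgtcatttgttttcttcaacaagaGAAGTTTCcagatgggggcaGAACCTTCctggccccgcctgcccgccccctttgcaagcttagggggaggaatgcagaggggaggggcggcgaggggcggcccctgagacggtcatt
Hspb7 upstream, chr4:141420529-141420778, plus strand: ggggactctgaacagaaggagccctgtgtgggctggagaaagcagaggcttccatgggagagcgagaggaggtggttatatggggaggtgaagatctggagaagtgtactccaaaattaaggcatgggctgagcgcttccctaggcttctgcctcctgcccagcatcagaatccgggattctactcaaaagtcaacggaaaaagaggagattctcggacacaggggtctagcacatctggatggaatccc
The other matches are given with up to 6 bases on each side, with the coordinates of the 8 capital letters.
Hspb6 match, chr7:30553181-30553188, plus strand: attattGAAGTTTCtaaata
Hspb8 match, chr5:116422855-116422862, minus strand: ccaggaGAAGTTTCtaggct
Bag3 match, chr7:128523625-128523632, plus strand: ggaccaGAAGTTTC
Hspb3 match, chr13:113663893-113663900, minus strand: cgaatgGAATTTTCaggcag

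The Hspb1 matches began 117 and 97 bases before the start site, and the Hspb6 match began 120 bases before it. In Hspb8 and Bag3 the match lay after the start, from its base 3 and base 43. The Hspb3 match was the most distant, 224 bases before the start. Hspb1, Hspb6, Hspb8 and Bag3 shared the same 8 letters, GAAGTTTC. A match was present in 15.1% of all 32851 windows of the same length, and 17% of 27025 genes had a window with one. A match is a description of the letters in these windows, and the letters missing from the Hspb7 window say nothing of the factor.

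The 14 libraries held 3315921 to 7089226 counts, so that 1 CPM (a read count scaled to library size with TMM factors) stood for 3.27 to 7.0 reads. Each library reads the 3′ end of transcripts, so a CPM needs no scaling for transcript length and levels of different genes can be set side by side. The fast fibre list of 10 genes, led by Myh4, summed to 101783 to 104272 CPM in WT controls, so markers of fast skeletal muscle were present as labelled. Transcripts of the mitochondrial genome took 24.0% ± 2.82 (SD, n = 3) of gene counts in WT controls, 31.8% ± 4.01 (n = 4) in WT runners, 26.2% ± 4.88 (n = 3) in FLExDUX4 controls and 33.2% ± 5.40 (n = 4) in FLExDUX4 runners. In bulk muscle, fewer cells of a type and less RNA per cell cannot be told apart.

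Over the 14 mice, Cryab had the highest mean level, 1014 CPM, followed by Hspb6 with 755. Hspb1 (193 CPM) and Hspb8 (133 CPM) came next, then Hspb7 (50.3), Bag3 (49.6), Hspb2 (30.6) and Hspb3 (15.5). Cryab exceeded Hspb6 in 11 of 14 mice, and Hspb7 exceeded Bag3 in 7 of 14, so these neighbours changed places between mice. Bag3 exceeded Hspb2 in 13 mice, and each of the other neighbours kept its order in all 14. The members also differed in how far they varied: Hspb7 spanned 7.82-fold between its lowest and highest mouse and Cryab 3.71-fold, against 1.89-fold to 2.505-fold for the other 6. All 8 passed the filter on low counts, and raw counts per mouse ran from 43 to 120 for Hspb3, the lowest member, and from 2045 to 8856 for Cryab.

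**Figure D1:**
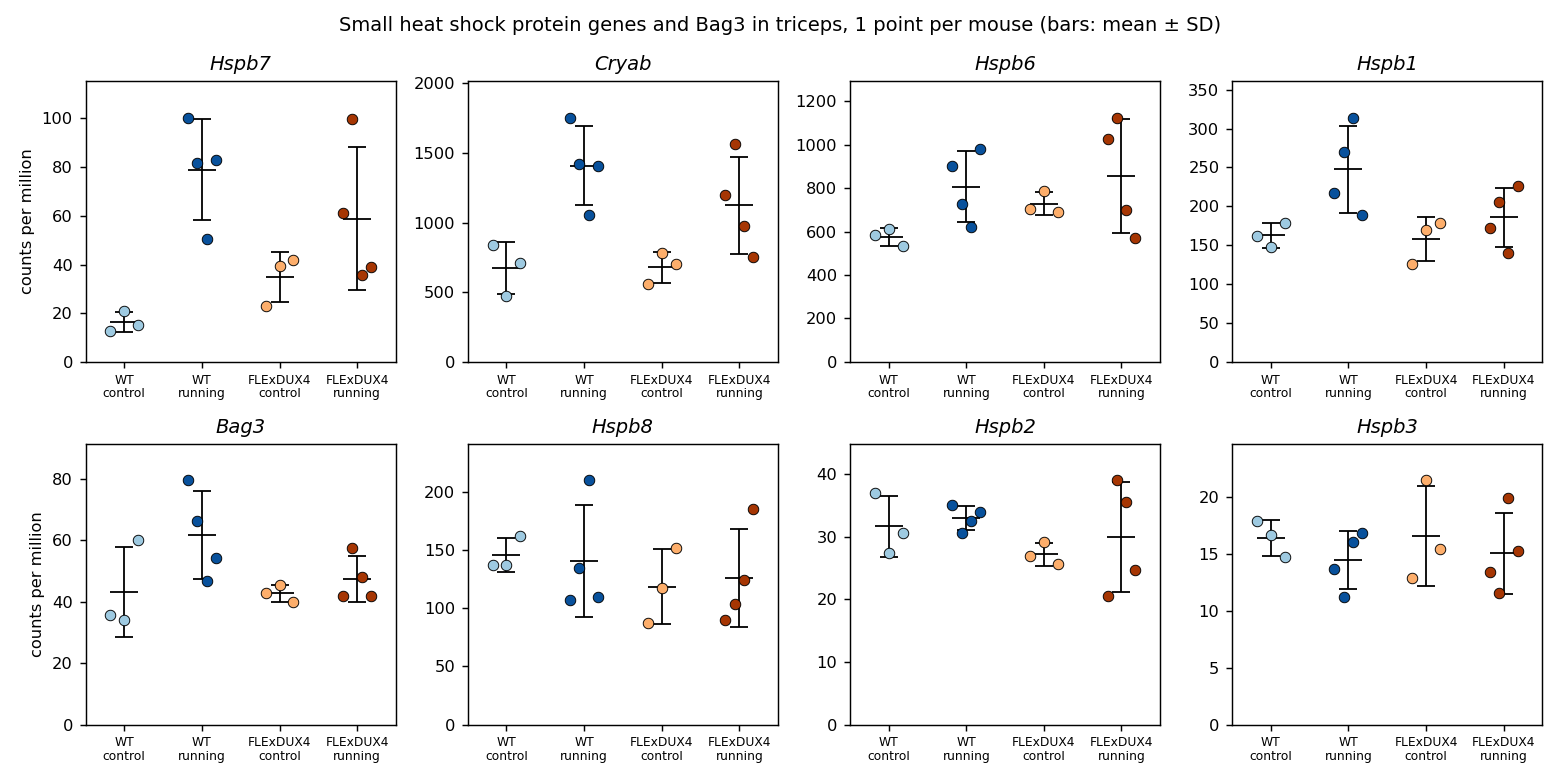
CPM of the 8 genes in each mouse (points), with the mean ± SD of each group (bars), on axes that start at 0. Hspb7 and Cryab sit higher in every WT runner than in any WT control, while the groups of Hspb2, Hspb3 and Hspb8 lie over each other.

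Hspb7, Cryab, Hspb1 and Hspb6 were higher in all 4 WT runners than in all 3 WT controls, and Hspb7 alone passed the test in that comparison. The comparison asks how wheel running bears on the muscle of mice without the transgene. All tests below are edgeR quasi-likelihood tests over 11088 genes with Benjamini-Hochberg adjustment, a gene being called under an adjusted p of 0.05. In WT, 1 of 8 members was called higher and 0 lower, beside 0.397% of all tested genes called higher and 0.0992% called lower. The groups did not overlap for 4 of 8 members, beside 5.74% of all genes with all runners higher. The members' median log2 difference was 0.50, against 0.01 over all tested genes.

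Hspb7, a small heat shock protein of heart and skeletal muscle that binds filamin C, had 12.8, 21.0 and 15.3 CPM in the WT controls. In the WT runners it had 100.3, 81.9, 50.6 and 83.0 CPM. Every runner was above every control by more than the range of the controls, and running mouse 3 was the lowest runner. The log2 difference was 2.27 ± 0.40 (SE; adjusted p = 0.0411), a 4.81-fold higher level. In the FLExDUX4 controls Hspb7 stood at 23.0, 39.4 and 41.9 CPM, and in the FLExDUX4 runners at 61.0, 99.6, 35.8 and 39.1. Only 2 of these 4 runners, mice 1 and 2, were above all FLExDUX4 controls, and the log2 difference of 0.74 ± 0.37 was not called (95% interval -0.06 to 1.55, adjusted p = 0.788). Averaged over genotype, Hspb7 was higher in runners by 1.50 ± 0.27 (adjusted p = 0.0315).

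The call of Hspb7 in WT was lost when any 1 of 9 mice was left out: WT control 1, 2 or 3, WT running 1, 2 or 4, FLExDUX4 control 2 or 3, or FLExDUX4 running 1. Across those 9 fits the log2 difference ran from 2.11 to 2.49 and the adjusted p from 0.0522 to 0.202. Over all genes, those fits called 0 to 51 in WT, against 44 higher and 11 lower with all mice. The averaged call was lost without any of WT control 1, 2 or 3, WT running 1 or 4, FLExDUX4 control 1, 2 or 3, or FLExDUX4 running 1, with values of 1.40 to 1.62 and adjusted p of 0.0503 to 0.106. These fits called 17 to 98 genes in the average, against 61 higher and 34 lower with all mice.

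Cryab encodes αB-crystallin, which protects desmin filaments and the Z-disc. Its levels were 841, 473 and 708 CPM in the WT controls, against 1753, 1423, 1052 and 1407 in the runners. The lowest WT runner stood above the highest WT control, yet the log2 difference of 1.06 ± 0.25 was not called (adjusted p = 0.0739). FLExDUX4 controls had 561, 779.7 and 699 CPM, and FLExDUX4 runners 1199.9, 1566, 974 and 756. Here 3 of 4 runners exceeded every control and mouse 4 did not, with a log2 difference of 0.72 ± 0.24 (95% interval 0.21 to 1.24, adjusted p = 0.612). The average over genotype passed the test, with Cryab higher by 0.89 ± 0.17 in runners (adjusted p = 0.0287). That call was lost without WT control 3, WT running 1 or 4, or FLExDUX4 control 1 or 3, with values of 0.83 to 0.91 and adjusted p of 0.0605 to 0.0871. Over all genes, those fits called 17 to 56 in the average, against 61 higher and 34 lower with all mice. In WT alone, Cryab was instead called when WT running 3 (1.18, adjusted p = 0.0278), FLExDUX4 running 2 (1.06, adjusted p = 0.0152) or FLExDUX4 running 4 (1.06, adjusted p = 0.0137) was left out, and DESeq2 called it on all 14 mice (adjusted p = 0.000331). In that order, these fits called 197, 103, 118 and 194 genes in WT, against 44 higher and 11 lower in the main fit.

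Hspb6, also called HSP20, is a phosphorylated small heat shock protein of muscle. The WT controls had 586, 611 and 532 CPM, and the WT runners 901, 726, 623 and 979, again without overlap. The FLExDUX4 controls, at 706, 789 and 689 CPM, were also all above the WT controls. The FLExDUX4 runners spread most widely, with 1029, 1125, 700.0 and 572 CPM, mouse 4 lying below all 3 of its controls. The running difference was 0.49 ± 0.18 in WT (adjusted p = 0.296) and 0.23 ± 0.18 in FLExDUX4 (adjusted p = 0.878), and neither was called. The averaged difference of 0.36 ± 0.13 (adjusted p = 0.204) was called when FLExDUX4 running 4 was the mouse left out (0.44, adjusted p = 0.0281), and with no other mouse left out singly. It was also called with spike-in library sizes (0.56, adjusted p = 0.0212) and without the filter on low counts (0.37, adjusted p = 0.013), as was Hspb6 in WT (0.86, adjusted p = 0.01, and 0.49, adjusted p = 0.0291). In that order, these fits called 286 of 10983, 430 of 11088 and 291 of 20938 genes in the average. The main fit called 61 higher and 34 lower. In WT the spike-in and unfiltered fits called 604 of 11088 and 217 of 20938 genes, against 44 higher and 11 lower. Hspb6 overlaps 2 genes of the opposite strand, Proser3 and Lin37, and Gm38670 on its own strand. The strand setting of the counting was not given in the sources used here, so reads of these genes may share its count.

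Hspb1, or HSP25 in mice, is the stress-inducible member that caps and stabilises actin. The WT controls had 161, 148 and 179 CPM, and the WT runners 217, 269.8, 314 and 189. These groups were apart, though the lowest runner stood just above the highest control, and the difference of 0.61 ± 0.17 was not called (adjusted p = 0.096). In FLExDUX4 the controls had 125, 169 and 179 CPM and the runners 172, 206, 140.0 and 227, with overlap (0.24 ± 0.17, adjusted p = 0.849). The averaged difference was 0.42 ± 0.12 (adjusted p = 0.0837). DESeq2 called Hspb1 both in WT (adjusted p = 0.0419) and in the average (adjusted p = 0.0416). Over all genes DESeq2 called 194 of 11088 in WT, against 44 higher and 11 lower in the main fit. In the average it called 273 of 11088, against 61 higher and 34 lower.

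Averaged over genotype, 2 of 8 members were called higher, Hspb7 and Cryab, beside 0.55% of all tested genes. In FLExDUX4 no member was called, beside 0% of all genes called in either direction, and with unadjusted p under 0.05 there was 1 member higher, Cryab, beside 3.61% of genes. DESeq2 called 0 members there as well. The same unadjusted count was 5 of 8 in WT, beside 6.3% of genes, and 5 of 8 in the average, beside 6.86%. The median member difference was 0.19 in FLExDUX4 and 0.35 in the average. With library sizes taken from spike-in RNA, the median of all genes in WT was 0.37 rather than 0.01. There 5 members were called, beside 604 of 11088 genes, and Hspb7 had the highest difference of the 8, at 2.64.

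**Figure D2:**
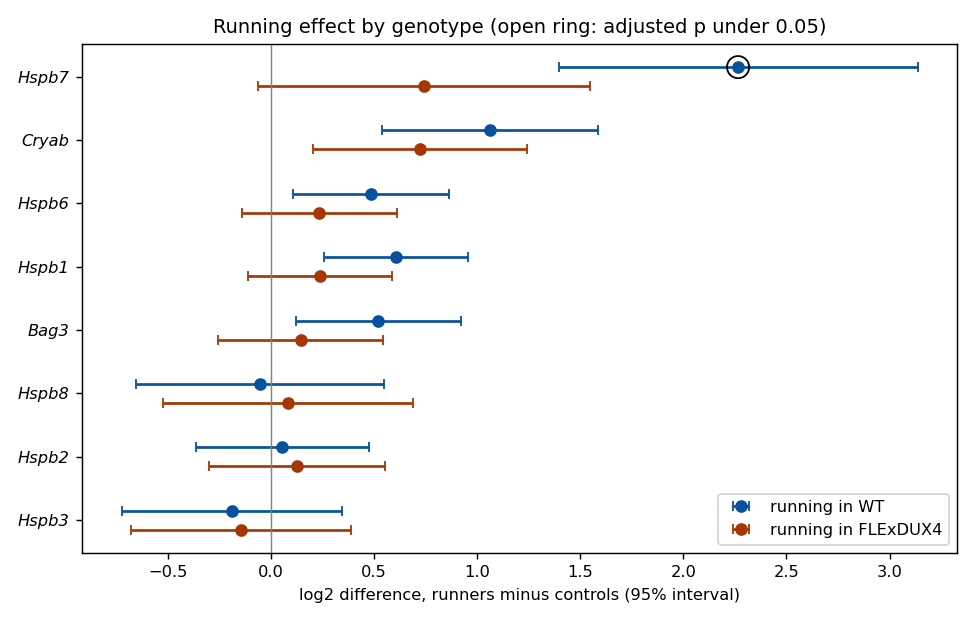
Log2 difference between runners and controls for each gene, with 95% intervals, in WT (blue) and in FLExDUX4 (brown), from the edgeR fit. The ring marks Hspb7 in WT, 2.27, the single called value, and the intervals of the 2 genotypes overlap for every gene.

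Neither gene of the HSPB8-BAG3 pair was called in any comparison with TMM scaling of the filtered counts. With spike-in library sizes Bag3 was called in WT running (0.90, adjusted p = 0.0124) and in the average (0.54, adjusted p = 0.0422). Over all genes that fit called 604 of 11088 in WT and 430 in the average. The 3 WT controls had 137, 137 and 162 CPM of Hspb8, and the 4 WT runners 107, 135, 209.9 and 109.7. WT runners 1, 2 and 4 were therefore below every WT control while mouse 3 was above them all, and the difference was -0.05 ± 0.28 (95% interval -0.65 to 0.55). The FLExDUX4 controls had 87.0, 118 and 151 CPM and the FLExDUX4 runners 90.2, 103, 125 and 185, with mouse 4 the highest (0.08 ± 0.28, interval -0.52 to 0.69). Bag3, which binds HSPB8 through short IPV motifs, stood at 35.5, 34.1 and 60.2 CPM in the WT controls, against 79.6, 66.2, 46.9 and 54.3 in the runners. WT control 3 overlapped the runners, and the difference of 0.52 ± 0.20 was not called (adjusted p = 0.282). Bag3 was more even in FLExDUX4, at 42.8, 45.6 and 40.0 CPM in controls and 42.0, 57.6, 48.2 and 41.9 in runners (0.14 ± 0.20, adjusted p = 0.951). Averaged over genotype the difference was 0.33 ± 0.14 for Bag3 (adjusted p = 0.296) and 0.02 ± 0.20 for Hspb8. The count ratio of Hspb8 to Bag3 averaged 3.53 ± 0.719 (SD, n = 3) in WT controls, against 2.47 ± 1.38 (n = 4) in the runners, and 2.80 ± 0.897 and 2.74 ± 1.17 in FLExDUX4 (exact permutation p = 0.229 and p = 1.0, adjusted p = 0.457 and 1.0 over 6 such tests).

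Hspb2 and Hspb3, the pair of the HSPB2-HSPB3 complex, spanned the narrowest ranges, 1.89-fold and 1.92-fold over all mice. Hspb2 ran from 27.4 to 37.02 CPM in WT controls, 30.5 to 35.03 in WT runners, 25.6 to 29.2 in FLExDUX4 controls and 20.6 to 39.0 in FLExDUX4 runners. The running difference was 0.06 ± 0.21 in WT (95% interval -0.36 to 0.48) and 0.13 ± 0.21 in FLExDUX4 (-0.30 to 0.55). Hspb3 ran from 14.7 to 17.9, 11.2 to 16.8, 12.9 to 21.4 and 11.6 to 19.9 CPM in the same order of groups. Its difference was -0.19 ± 0.26 in WT (interval -0.72 to 0.34) and -0.15 ± 0.26 in FLExDUX4 (-0.68 to 0.39). Averaged over genotype, the differences were 0.09 ± 0.15 for Hspb2 and -0.17 ± 0.19 for Hspb3.

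Cryab and Hspb2 are neighbours on chromosome 9, on opposite strands, and were compared through the ratio of their counts. In GENCODE M21, Hspb2 lies at chr9:50751078-50752354 on the minus strand and Cryab at chr9:50751325-50756636 on the plus strand, an overlap of 1030 bases. Their 3′ ends, where the reads fall, are 5558 bases apart. The count ratio of Cryab to Hspb2 averaged 21.0 ± 3.28 (SD, n = 3) without running and 42.6 ± 7.67 (n = 4) with running in WT. In FLExDUX4 it averaged 24.97 ± 3.56 in controls and 39.1 ± 13.8 in runners. Every runner had a higher ratio than every control of its genotype, from 32.4 against at most 23.1 in WT and from 27.4 against at most 27.3 in FLExDUX4. A 2-sided exact permutation test, with the smaller tail doubled, gave p = 0.0571 in each genotype, the smallest that 3 against 4 mice allow in that form (adjusted p = 0.171 over 6 tests).

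The remaining loci are Hspb1 at chr5:135887919-135889563 (plus), Hspb8 at chr5:116408491-116422864 (minus), Hspb7 at chr4:141420779-141425311 (plus), Hspb3 at chr13:113662896-113663676 (minus), Hspb6 at chr7:30552178-30555443 (plus) and Bag3 at chr7:128523616-128546981 (plus), all on GRCm38. Bag3 overlaps 2610306O10Rik on its own strand, so reads in the shared part cannot be told apart by strand.

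Among mice without a wheel, the largest difference of a member between genotypes was that of Hspb7, and it was not called. Its level was 34.8 CPM ± 10.3 (SD, n = 3) in FLExDUX4 controls and 16.4 ± 4.16 (n = 3) in WT controls, every FLExDUX4 control lying above every WT control. The log2 difference was 1.09 ± 0.41 (95% interval 0.19 to 1.999, adjusted p = 0.969). Hspb6 was the other member whose groups did not overlap (0.34 ± 0.20, adjusted p = 0.972), which makes 2 of 8 beside 5.93% of all genes with the FLExDUX4 controls higher. No member was called, beside 0% of genes called, 1 had an unadjusted p under 0.05, beside 2.81% of genes higher, and DESeq2 called 0 members. The median member difference was 0.00. Hspb8 (-0.29 ± 0.30) and Hspb2 (-0.22 ± 0.22) were the next in size, and Hspb1 (-0.04 ± 0.18), Hspb3 (0.01 ± 0.28), Cryab (0.01 ± 0.26) and Bag3 (-0.01 ± 0.21) lay near 0. Hspb7 was called without the filter on low counts (adjusted p = 0.0317), beside 12 of 20938 genes. With the mean log2 CPM of 13 slow fibre genes as a covariate, the difference was 0.64 for Hspb7 (adjusted p = 0.998) and -0.022 for Hspb6. Marker sums of 4 lists also separated these groups, all FLExDUX4 controls being higher. The tendon markers summed to 98.0 to 201 CPM against 43.6 to 84.8, and the endothelial markers to 119 to 139.7 against 88.2 to 101. The smooth muscle and pericyte markers summed to 196 to 225 CPM against 158 to 191, and the slow fibre genes to 215 to 550 against 52.95 to 69.0. Of the 5 smooth muscle and pericyte markers tested, 3 were above 0, while Tagln (-0.30 ± 0.44) and Pdgfrb (-0.38 ± 0.40) were below. The fast fibre genes were lower, at 86344 to 99829 CPM against 101783 to 104272. The mean log2 CPM of the slow fibre genes was 3.31 to 4.81 in FLExDUX4 controls and 1.85 to 2.14 in WT controls, without overlap. The covariate therefore cannot separate the slow fibre level from genotype among mice without a wheel. The part of the other lists in the member differences was not tested.

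In runners no member was called between genotypes, by edgeR or by DESeq2, beside 0% of genes. Hspb1 stood at -0.41 ± 0.16 (FLExDUX4 minus WT, unadjusted p = 0.0136) and Bag3 at -0.39 ± 0.18 (unadjusted p = 0.0396), each with an adjusted p of 0.999. These 2 of 8 compare with 1.57% of genes lower at that unadjusted threshold, and the median member difference was -0.24. The others stood at -0.43 ± 0.33 for Hspb7, -0.33 ± 0.22 for Cryab, -0.15 ± 0.26 for Hspb8, -0.15 ± 0.19 for Hspb2, 0.05 ± 0.24 for Hspb3 and 0.08 ± 0.17 for Hspb6. The difference between the running effects of the 2 genotypes was tested as an interaction. It was -1.52 ± 0.53 for Hspb7 (95% interval -2.68 to -0.37, unadjusted p = 0.014, adjusted p = 0.954) and was called for no member by edgeR or DESeq2, beside 0% of genes called. Hspb7 was the only 1 of 8 members with an unadjusted p under 0.05, beside 2.66% of genes lower at that threshold. The other 7 ranged from -0.38 ± 0.28 for Bag3, -0.37 ± 0.24 for Hspb1, -0.34 ± 0.34 for Cryab and -0.25 ± 0.26 for Hspb6 to 0.13 ± 0.40 for Hspb8, with Hspb3 at 0.04 ± 0.37 and Hspb2 at 0.07 ± 0.30. Without the filter on low counts the Hspb7 interaction was called at the same size (-1.52, adjusted p = 0.00931), beside 11 of 20938 genes. In the filtered fit, the running effect of Hspb7, called in WT and not in FLExDUX4, was not shown to differ between them.

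The authors' deposited table holds log2 fold changes of the same pairs of groups, and the submitters' processing notes name DESeq2. A single member in the authors' deposited table had an adjusted p under 0.05 between WT runners and WT controls, Hspb7 with 0.95 and 0.0133, beside 9.9% of the 3021 genes that have an adjusted p there. The authors' deposited table lists Cryab at 0.72 (adjusted p = 0.0527) and Bag3 at 0.47 (adjusted p = 0.0792). These values are deposited as controls minus runners, and their signs are turned here to runners minus controls. For Hspb7 the deposited 0.95 was well below the log2 difference of 2.27 in the edgeR fit and 2.27 with DESeq2 here. The sizes are therefore not on a like scale, and the reason was not tested. No other comparison in the authors' deposited table called a member.

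As a sum, the 8 genes took 1666 CPM ± 183 (SD, n = 3) in WT mice without a wheel, against 2792 ± 356 (n = 4) in those with one. The sums were 1806 ± 205 in FLExDUX4 controls and 2444 ± 604 in FLExDUX4 runners. Cryab and Hspb6 made up most of each sum. In WT the share of Cryab was 39.9% ± 7.04 in controls and 50.1% ± 4.18 in runners, while that of Hspb8 was 8.80% ± 1.12 and 5.26% ± 2.55. Hspb7 stayed a small part of the family, at 1.01% ± 0.375 and 2.79% ± 0.434.

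Correlations of log2 CPM over the 14 mice are descriptions, since the mice share groups, library size scaling and the composition of each library. Hspb7 and Cryab had the highest pairwise value (Pearson r = 0.83, Spearman rho = 0.81), which was 0.59 after the group means were subtracted. Hspb6 went with Hspb7 (0.78, rho = 0.79, within groups 0.76) and with Cryab (0.70, rho = 0.67, within groups 0.70). Bag3 followed Cryab (0.73, rho = 0.69) more closely than its partner Hspb8 (-0.15, rho = -0.24). Of the 28 pairs, 19 were above 0, with a median of 0.13.

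**Figure D3:**
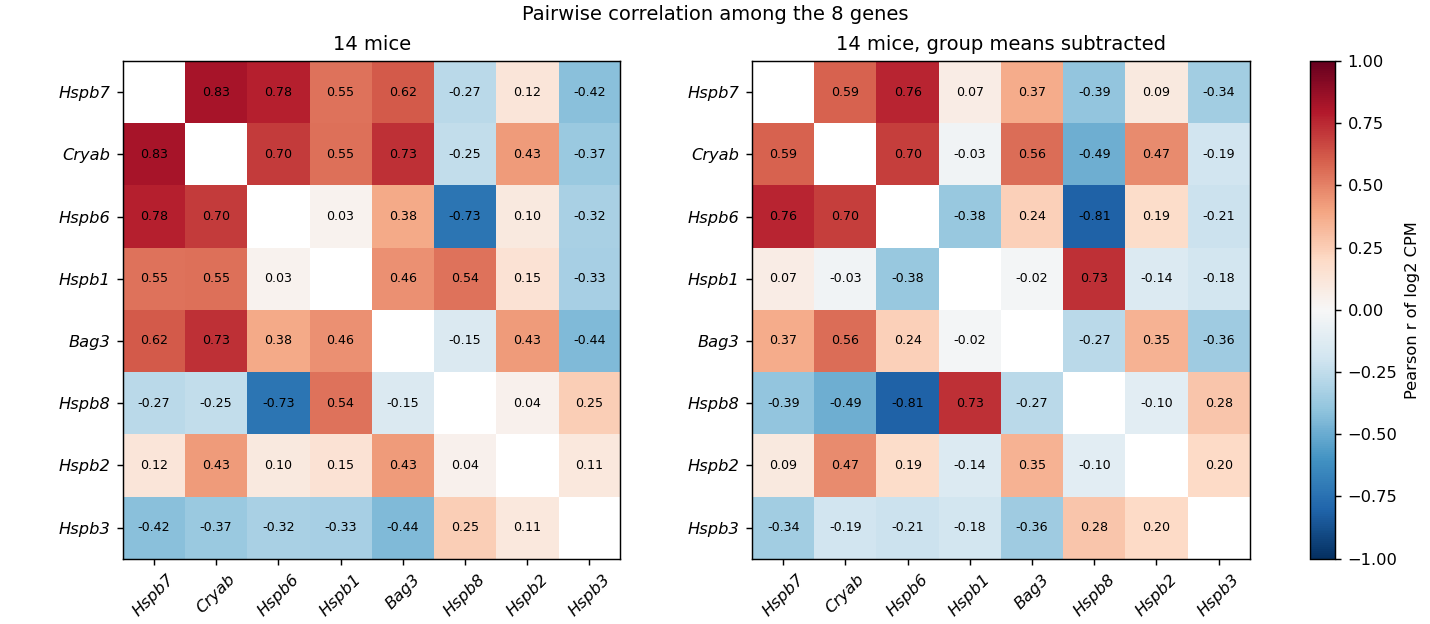
Pearson correlation of log2 CPM for each pair of the 8 genes, over 14 mice (left) and after subtracting group means (right), coloured from -1 (blue) to 1 (red). Hspb7, Cryab and Hspb6 form a block of positive values, and Hspb6 with Hspb8 is the lowest pair, at -0.73 and -0.81.

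Hspb6 and Hspb8 ran opposite to each other. Their Pearson r was -0.73 (rho = -0.82), -0.81 within groups, and -0.65 without the 2 mice farthest from the median of Hspb6. Hspb8 instead went with Hspb1 within groups (0.73, against 0.54 over all mice, rho = 0.37). Over all mice, that pair rested in part on WT running 2 and WT running 3, the 2 mice farthest from the median of Hspb1. Without them its r over all mice was 0.31, and the value within groups was not recomputed. WT running 3 and FLExDUX4 running 4 had the highest Hspb8 of all 14 mice, the highest Hspb1 of their groups and the lowest Hspb6 of their groups. The same mice had the lowest mitochondrial shares of their groups, 27.0% and 26.6%, and the part of that measure in the pattern was not tested. Without both, a choice made after their values were seen, 3 members were called in WT (Hspb6, Hspb7 and Cryab), beside 276 of 10790 genes. With all 14 mice, 44 of 11088 genes were called higher in WT and 11 lower, so calls rose over all genes.

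**Figure D4:**
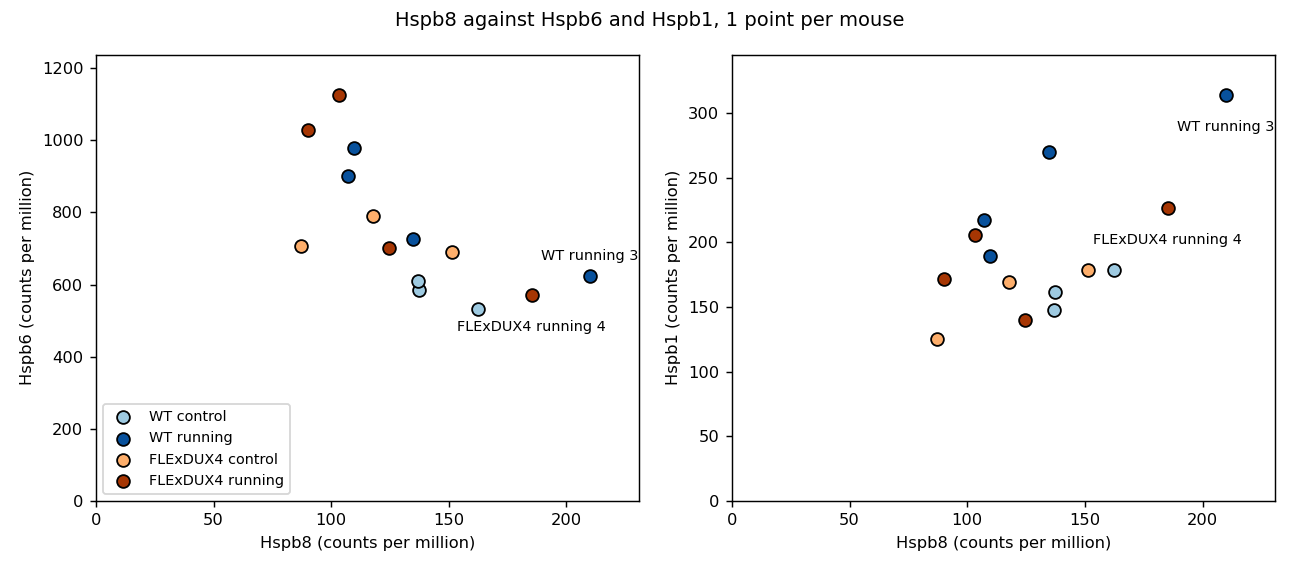
Hspb8 against Hspb6 (left) and Hspb1 (right) in CPM, 1 point per mouse, coloured by group, on axes that start at 0. FLExDUX4 running 1 has 1029 CPM of Hspb6 at 90.2 of Hspb8, FLExDUX4 running 4 has 572 at 185, and the 2 mice with the highest Hspb8 are WT running 3 and FLExDUX4 running 4.

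The slow fibre genes varied beside 3 members. The list of 13 slow fibre genes (Myh7, Myl2, Tnnt1 and others, none at 0 in all libraries) summed to 52.95 to 69.0 CPM in WT controls, 150 to 863 in WT runners, 215 to 550 in FLExDUX4 controls and 69.4 to 1134 in FLExDUX4 runners. Over 14 mice, its mean log2 CPM correlated with Hspb6 at 0.88 (rho = 0.87), Hspb7 at 0.71 (rho = 0.77) and Cryab at 0.62 (rho = 0.64). Hspb8 ran against it (-0.58, rho = -0.64), and Hspb1 (-0.03), Hspb2 (0.15) and Hspb3 (-0.11) were near 0. Without the 2 mice farthest from its median, the values were 0.85 for Hspb6, 0.71 for Hspb7 and 0.55 for Cryab. WT running 2 had an Hspb7 level of 81.9 CPM. Its slow fibre mean was 2.43, above the WT controls at 1.85 to 2.14. Its mean log2 CPM of the fast fibre genes was 12.03, below the WT controls at 12.40 to 12.45. Slow fibre means ran from 2.43 to 5.53 in WT runners, without overlap with the WT controls. A covariate of that kind therefore cannot separate the slow fibre level from running in WT. With the slow fibre mean as a covariate, the WT running difference of Hspb7 was 1.79 (adjusted p = 0.0808). The averaged difference of Cryab was 0.66 (adjusted p = 0.148). Both of these calls were lost, while Hspb7 was still called in the average (1.21, adjusted p = 0.0203). Most calls over all genes were lost too, with 2 of 11088 left for running in WT and 10 in the average. Without the covariate, 44 were called higher and 11 lower in WT, and 61 higher and 34 lower in the average. The differences of Hspb6 under that covariate were 0.073 in WT and 0.092 in the average, against 0.49 and 0.36 without it.

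**Figure D5:**
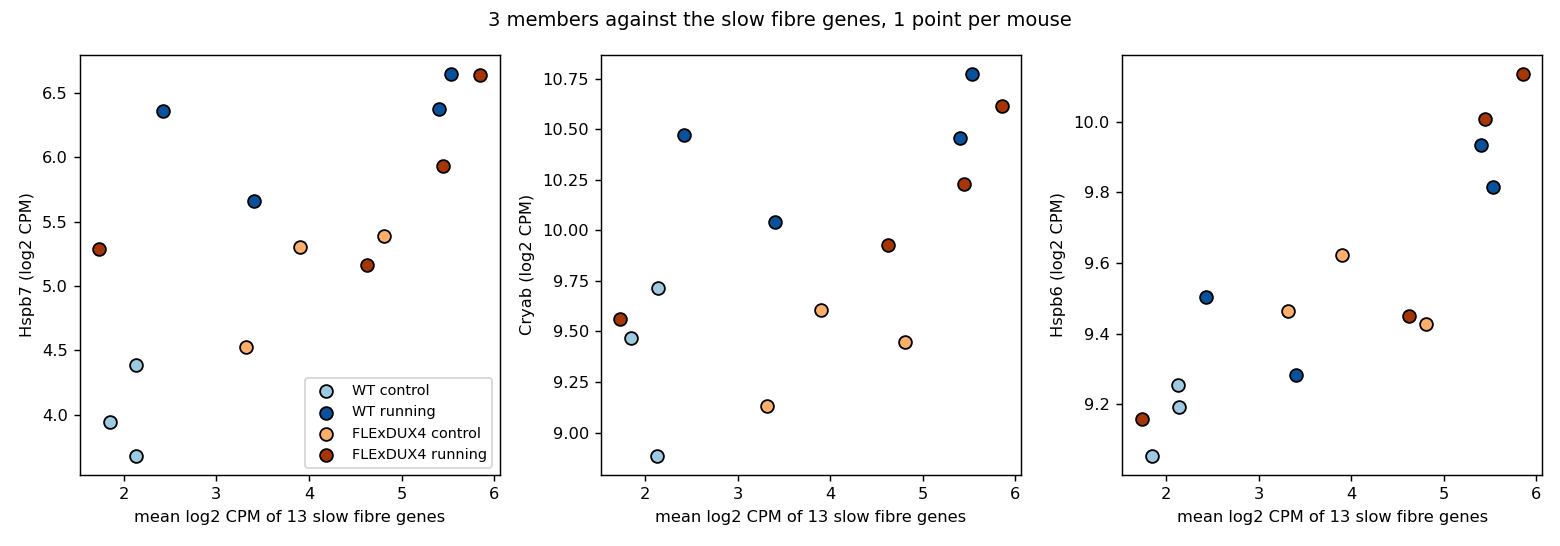
Log2 CPM of Hspb7, Cryab and Hspb6 against the mean log2 CPM of 13 slow fibre genes, 1 point per mouse, coloured by group. Hspb6 follows the slow fibre mean most closely (0.88), and WT running 2 has a slow fibre mean of 2.43, above those of the WT controls.

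Other marker lists also differed between mice. The fast fibre mean correlated with Cryab at -0.90, Hspb7 at -0.88 and Hspb6 at -0.86 over 14 mice. The 6 endothelial markers summed to 88.2 to 101 CPM in WT controls, against 148 to 245 in the runners, and the 6 smooth muscle and pericyte markers to 158 to 191 and 224 to 281. None of those markers was at 0 in all libraries, and Cnn1 was at 0 in 7. The 5 red blood cell markers summed to 441 to 955 CPM in WT controls, against 1134 to 1840 in the runners, and the 5 Schwann cell markers to 30.9 to 38.2, against 45.7 to 69.0. Both of these lists also stood apart between the groups, and Sox10 was at 0 in 5 libraries. The part of these 4 lists in the differences of Hspb6, Hspb7, Hspb1 and Cryab was not tested.

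For each member, the 3 genes with the most similar pattern over the 14 mice were taken from all tested genes. Hspb7 lay closest to Bdh1, an enzyme of ketone body use (r = 0.95), Slc25a34 (0.93) and the oxygen store myoglobin, Mb (0.93). Cryab lay closest to Got1 (0.93), the mitochondrial creatine kinase Ckmt2 (0.93) and the ATP synthase subunit Atp5d (0.92). Hspb6 followed Echs1, an enzyme of fatty acid oxidation (0.93), Fxyd6 (0.93) and Ankrd2 (0.92), which is also in the slow fibre list. Nearest to Hspb8 were Asb5 (0.85), Cst3 (0.84) and Dupd1 (0.84), and nearest to Hspb1 were Tagln2 (0.83), Gtf2b (0.80) and Rrad (0.79). Bag3 had Stom (0.90), Tkfc (0.88) and Npepps (0.87) as neighbours. The neighbours of Hspb2 were Tmem220 (0.86), Snhg18 (0.81) and Vac14 (0.79), and those of Hspb3 were Fbxl5 (0.84), Arl13b (0.82) and Ube2e1 (0.79).

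No other gene of the CASA route was called. Of 16 genes, among them the HSP70 Hspa8, the ligase Stub1 (CHIP), Synpo2 and Sqstm1, 0 were called in any of the 6 comparisons by edgeR. With running averaged over genotype, 0 of 16 had an unadjusted p under 0.05 and 5 of 16 were above 0, beside 51.5% of all genes, with a median of -0.08. The smallest p values belonged to the 14-3-3 protein Ywhag (-0.21 ± 0.11), the autophagosome protein Map1lc3a (0.14 ± 0.10) and Synpo2 (-0.14 ± 0.10), with adjusted p of 0.421 to 0.643. Flnc, the filamin that BAG3 and HSPB8 clear, differed by 0.13 ± 0.11 (adjusted p = 0.736). By genotype its running difference was 0.33 ± 0.16 in WT (adjusted p = 0.469) and -0.08 ± 0.16 in FLExDUX4 (adjusted p = 0.972). Hspa1a had an unadjusted p under 0.05 for genotype in controls (1.04 ± 0.43), 1 of 16 beside 2.81% of genes higher. It also did for the interaction (-1.24 ± 0.57), 1 of 16 beside 2.66% of genes lower.

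The heat shock factor and HSF1 target list had 17 of 18 genes tested. In WT running 1 was called higher, the HSP90 co-chaperone Fkbp4 (0.64 ± 0.15, adjusted p = 0.0411), beside 0.397% of all genes, and 13 of 17 were above 0, beside 51.3% of all genes. In the average 0 were called, and 2 of 17 were higher with an unadjusted p under 0.05, beside 6.86% of all genes, with Fkbp4 at 0.35 ± 0.10 (adjusted p = 0.0826), the mitochondrial co-chaperonin Hspe1 at 0.24 ± 0.11 (adjusted p = 0.366) and the HSP90 partner Chordc1 at 0.23 ± 0.12 (adjusted p = 0.438). Its median was 0.03 in the average and 0.10 in WT. The count above 0 was 9 of 17 in the average, beside 51.5% of all genes, and 7 of 17 for running in FLExDUX4, beside 51.1%, with a median of -0.05. It was 8 of 17 for genotype in controls, beside 50.3%. For genotype in runners 2 of 17 were above 0, beside 48.8%, and for the interaction 2 of 17, beside 49.4%, with medians of -0.21 and -0.16.

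Among 13 cytoskeletal clients and Z-disc partners, 1 was called lower in the average, Synm, the intermediate filament protein synemin (-0.46 ± 0.11, adjusted p = 0.0353), beside 0.307% of all genes called lower. The next smallest p values were those of Actn2, α-actinin-2 of the Z-disc (1.51 ± 0.34, adjusted p = 0.0774), and Actn3, the α-actinin of fast fibres (-0.48 ± 0.16, adjusted p = 0.179). Of 4 other small heat shock genes, Cryaa and Hspb9 had 0 counts in all libraries, Odf1 did not pass the filter, and Hspb11 differed by 0.08 ± 0.32 in the average (adjusted p = 0.958).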

How the data were processed

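Gene expression was measured in whole triceps of 14 mice by 3′-end sequencing of QuantSeq FWD libraries. For each mouse, the authors deposited raw counts of reads on genes and spike-ins, and, for pairs of groups, log2 fold changes and adjusted p-values. Tools listed, without their roles, in the submitters' processing notes are STAR 2.5.3a, featureCounts 1.6.2, cutadapt 1.16, FastQC 0.11.7 and DESeq2. The builds listed are GRCm38 and GRCh38. Settings for strand and for multi-mapping reads are not given in the sources used here.

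The 99 spike-ins were set aside, which left 52550 genes. Counts were scaled with TMM factors and filtered with filterByExpr (minimum count 10), which left 11088. All 14 libraries were fitted at once with edgeR 4.0.16 in R 4.3.3 (robust quasi-likelihood, 1 mean per group), with Benjamini-Hochberg adjustment over all tested genes. Log2 values of correlations used a prior count of 2. The fit was first tested on simulated data. The labels give no batch or pairing. Replicate counts differed by more than sampling noise, with a chi-square of at least 5.89 for each degree of freedom. The labels do not say which mice shared a litter or cage, so p-values measure the spread between these mice.

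All 8 members were named, with the 3 most similar genes of each and, from each list, the 3 genes of smallest p with running averaged over genotype. Genes outside that rule (Flnc, Hspb11 and markers) were chosen for their role. The members and lists were chosen with earlier results of these data known. The alternatives were DESeq2 1.42.0, limma-voom (limma 3.58.1), RLE factors, spike-in library sizes, counts without mitochondrial genes, no filter, no robust estimate, a threshold of 0.10, only the groups compared, the slow fibre mean as a covariate, and mice left out singly or in pairs.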

Additional observations from a re-analysis of the deposited data

How the results depend on the processing

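Running in WT called 1 member, 3 with DESeq2, 2 with limma-voom, 5 with spike-in library sizes, 4 without the low-count filter, 2 without the robust estimate, 3 at a threshold of 0.10 and 2 with only the groups compared. The calls over all genes moved as well. In the main fit 44 of 11088 genes were called higher and 11 lower. In the same order of settings, 194, 23 and 604 of 11088 genes were called, then 217 of 20938, 74 and 149 of 11088, and 56 of 10215. Running in WT called 0 members with the slow fibre covariate, 0 without FLExDUX4 control 1 and WT running 2 together, 3 without WT running 3 and FLExDUX4 running 4 together, and 0 to 2 with 1 mouse left out. Over all genes these fits called 2 of 11088, 41 of 11464, 276 of 10790, and 0 to 197. Running averaged over genotype called 2 members, 5 with spike-ins, 4 without the filter, 0 without FLExDUX4 control 1 and WT running 2, 1 with the slow fibre covariate and 0 to 3 with 1 mouse left out. Over all genes the main fit called 61 higher and 34 lower of 11088. The alternatives called 430 of 11088, 291 of 20938, 24 of 11464, 10 of 11088, and 17 to 286 with 1 mouse left out. Without the filter, 1 member was called for running in FLExDUX4 (Cryab), 1 for genotype in controls (Hspb7, 1.09, adjusted p = 0.0317) and 1 for the interaction (Hspb7, -1.52, adjusted p = 0.00931). In that order, 24, 12 and 11 of 20938 genes were called there. The cause of these changes was not tested.

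Hspb7, Cryab, Hspb1, Hspb6 and Bag3 were higher with running in WT, in FLExDUX4 and in the average under every alternative run. With spike-in library sizes the median of all genes was 0.37 in WT, 0.21 in the average, 0.31 for genotype in controls and -0.32 for the interaction, against 0.01, 0.01, 0.0023 and -0.0071 with TMM. Some uncalled differences changed sign, the largest being 0.34 for Hspb6 and -0.29 for Hspb8 in genotype in controls. With spike-ins these were, for running in WT, Hspb3 0.17 and Hspb8 0.30, for the average Hspb3 0.024, for genotype in controls Hspb1 0.28, Hspb2 0.095, Hspb8 0.019 and Bag3 0.31, and for the interaction Hspb2 -0.26, Hspb3 -0.30 and Hspb8 -0.15. With the slow fibre covariate they were, for running in WT, Hspb2 -0.091 and Hspb8 0.31, for genotype in controls Hspb1 0.14, Hspb3 -0.011, Hspb6 -0.022, Hspb8 0.092 and Cryab -0.33, and for the interaction Hspb6 0.037 and Hspb8 -0.23. Without FLExDUX4 control 1 and WT running 2 they were Hspb8 -0.086 for running in FLExDUX4 and -0.061 for the average, Hspb1 0.095 for genotype in controls, Hspb3 -0.045 for genotype in runners, and Hspb3 -0.19 and Hspb8 -0.049 for the interaction. Without WT running 3 and FLExDUX4 running 4, Hspb8 was -0.17 for running in FLExDUX4 and -0.24 for the average. With limma-voom, Hspb8 was -0.024 for the average, Hspb3 -0.035 and Bag3 0.058 for genotype in controls, and Hspb2 -0.013 for the interaction. For genotype in controls Bag3 was 0.0012 with DESeq2 and 0.0013 with RLE factors.

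With 1 mouse left out, running in WT ran from -0.040 to 0.18 for Hspb2 and -0.31 to 0.056 for Hspb8, and running in FLExDUX4 from -0.028 to 0.27 for Hspb2, -0.30 to 0.078 for Hspb3 and -0.17 to 0.30 for Hspb8. The average ran from -0.11 to 0.13 for Hspb8. Genotype in controls ran from -0.14 to 0.10 for Hspb1, -0.21 to 0.16 for Hspb3, -0.19 to 0.20 for Cryab and -0.15 to 0.30 for Bag3. Genotype in runners ran from -0.096 to 0.15 for Hspb3, -0.075 to 0.24 for Hspb6 and -0.41 to 0.10 for Hspb8. The interaction ran from -0.084 to 0.22 for Hspb2, -0.11 to 0.27 for Hspb3 and -0.12 to 0.39 for Hspb8. Hspb3, the member with the fewest reads, had the widest relative counting error, and 3 or 4 mice per group limit all tests.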
